A study of Mus musculus with 10 samples.

Results

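Keratins 7, 8, 18 and 19 and the junction genes Epcam, Cdh1, Cldn4 and Cldn7 were followed in mouse lung tumours under a SHP2 inhibitor, a chemokine receptor inhibitor or both. These 8 genes were taken as a list of keratins and epithelial junction genes. All 8 were present among the 55341 genes of the bulk count files and among the 32285 genes of the single-cell matrix. In the single-cell data they were read mainly in clusters 21, 22 and 23 of the deposited clustering, which hold the tumour cells (4188 cells), and in the epithelial cluster 24 (349 cells), of 44986 cells in 33 clusters.

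Keratin filaments of simple epithelia are built from pairs of a type II chain (Krt7, Krt8) and a type I chain (Krt18, Krt19), and Krt8 with Krt18 is the pair found in nearly every simple epithelium, lung included. E-cadherin, the product of Cdh1, holds neighbouring cells together at adherens junctions, Epcam is a cell surface adhesion protein of epithelia and carcinomas, and the claudins Cldn4 and Cldn7 form the strands of tight junctions. Pathologists use the keratins and Epcam to recognise carcinoma cells, and the loss of E-cadherin is a hallmark of the epithelial to mesenchymal transition.

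Tumours were seeded by injecting KP cells, a mouse lung adenocarcinoma line, into a vein of syngeneic mice, and all groups received their treatment for 11 days. Single-cell RNA was measured after SHP099 together with SX682 (the combination), after SHP099, after SX682 and after vehicle, with live cells from 3 hashtagged mice in 1 pool per treatment. Bulk RNA was measured in cells sorted for the Epcam protein after SHP099 and after vehicle, with 3 libraries each. SHP099 blocks SHP2, a phosphatase that passes growth factor signals to the ERK pathway, and SX682 inhibits CXCR1 and CXCR2, the receptors by which neutrophils follow chemokines. The sources used here do not give the mouse strain, the doses or the sex and age of the mice, and every tumour comes from 1 injected line. Since each treatment was 1 pool, treatment and pool cannot be told apart in the single-cell data.

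The members lie on 5 chromosomes of the mm10 build. Krt7 (chr15:101411043-101430313, plus strand, 11 exons), Krt8 (chr15:101996698-102004482, minus strand, 9 exons) and Krt18 (chr15:102028180-102032027, plus strand, 7 exons) share the keratin cluster of chromosome 15. The start of Krt8 lies 23698 bases from that of Krt18, and both genes are read away from the stretch between them. Krt19 (chr11:100140810-100148665, minus strand, 8 exons) and Cldn7 (chr11:69964779-69967885, plus strand, 5 exons) lie on chromosome 11. Epcam (chr17:87635979-87651129, plus strand, 10 exons), Cdh1 (chr8:106603351-106670246, plus strand, 16 exons) and Cldn4 (chr5:134945119-134946934, minus strand, 1 exon) are each alone on their chromosome. Exons of Krt8 overlap those of Gm36026 and exons of Krt7 overlap those of Gm671, on the opposite strand, and the bulk reads were counted without strand, so reads of each pair cannot be told apart there.

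Promoter sequences are shown for Krt8 and Krt18, the filament partners that lie side by side in the genome and were lower together, and for Cldn4, whose SHP099 and vehicle samples did not overlap in bulk or in tumour cells. This choice was made after the values were seen. They are RefSeq windows of the GRCm38.p6 assembly from 250 bases before to 50 bases after the RefSeq start, 5′ to 3′ on the gene's strand, and 6 of the 8 members have one. Capitals mark the letters CACCTG or their reverse complement CAGGTG (the E-box that Snail and Zeb repressors bind) and TGANTCA (an AP-1 motif). They occur in 20.2% and 7.81% of 32851 such windows.
Krt8, chr15:102004293-102004592, minus strand: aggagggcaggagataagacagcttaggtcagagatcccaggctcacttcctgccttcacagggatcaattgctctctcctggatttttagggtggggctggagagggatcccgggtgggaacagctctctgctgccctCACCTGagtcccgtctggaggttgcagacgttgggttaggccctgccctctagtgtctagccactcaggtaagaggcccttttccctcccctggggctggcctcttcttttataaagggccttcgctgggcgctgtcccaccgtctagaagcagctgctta
Krt18, chr15:102027966-102028265, plus strand: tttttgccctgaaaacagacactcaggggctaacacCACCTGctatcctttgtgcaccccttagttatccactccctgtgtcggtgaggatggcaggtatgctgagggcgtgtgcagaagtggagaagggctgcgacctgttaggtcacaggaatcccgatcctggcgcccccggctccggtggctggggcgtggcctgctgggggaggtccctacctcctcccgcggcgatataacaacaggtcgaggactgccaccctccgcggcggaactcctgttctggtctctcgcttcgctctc
Cldn4, chr5:134946885-134947184, minus strand: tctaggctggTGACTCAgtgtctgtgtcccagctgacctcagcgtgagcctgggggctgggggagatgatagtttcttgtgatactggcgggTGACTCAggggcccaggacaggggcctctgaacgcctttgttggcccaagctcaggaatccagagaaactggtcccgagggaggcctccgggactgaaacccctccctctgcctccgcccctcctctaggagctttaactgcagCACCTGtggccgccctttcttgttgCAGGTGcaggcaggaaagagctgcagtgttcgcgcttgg
Distances here count from the RefSeq start, which for Krt8 and Krt18 lies inside the gene as placed above and for Cldn4 is the same. The Krt8 window holds 1 E-box, 111 bases before that start and within the gene as placed above, and the Krt18 window holds 1, 214 bases before it. The Cldn4 window holds 2 AP-1 motifs, 240 and 158 bases before the start, and 2 E-boxes, 14 bases before and 12 bases after it. Of the windows not printed, Krt7 holds 1 E-box 44 bases before the start and Epcam holds 2, at 187 and 19 bases before. Cldn7 has 2 windows, of which 1 holds no motif and the other 2 E-boxes. These matches describe letters in a window and were not tested as binding sites. Krt19 and Cdh1 are named only.

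Across clusters Krt8, Krt18 and Krt19 were highest in clusters 21, 22 and 23 and Epcam in cluster 21, whereas Krt7, Cldn4 and Cldn7 were highest in cluster 24. Levels in a cluster are UMI counts scaled to a common total (CPM) over all its cells, and they are given as a description because clusters were drawn from the same cells. Krt8 stood at 4978 CPM in cluster 21, 3344 in cluster 22 and 3491 in cluster 23, against 469 in cluster 24 and a median of 44.7 over the other clusters. Krt18 followed the same pattern with 2111, 1723 and 2653 CPM in clusters 21, 22 and 23 and 244 in cluster 24. Krt19 had 2743, 1695 and 1803 CPM there and 138 in cluster 24. Clusters 21, 22 and 23 together held 95.8% of the 232639 Krt8 UMIs, 95.4% of the 144850 Krt18 UMIs and 93.7% of those of Krt19.

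Epcam set the 2 large tumour clusters apart. It had 1116 CPM in cluster 21, 193 in cluster 22 and 103 in cluster 23, against 229.6 in cluster 24, and 74.5% of all Epcam UMIs fell in cluster 21 alone. Cdh1 was more even, with 237 CPM in cluster 21, 153 in cluster 22, 140.3 in cluster 23 and 234 in cluster 24. Krt7 had 58.1, 85.0 and 16.5 CPM in clusters 21, 22 and 23 and 128 in cluster 24. The claudins were near the limit of detection in tumour cells. Cldn4 had 4.53 CPM in cluster 21, 0 in cluster 22 and 1.48 in cluster 23, against 19.1 in cluster 24, from 179 UMIs in the whole matrix. Cldn7 had about 1 CPM in the large tumour clusters (1.08 in cluster 21 and 0.967 in cluster 23) and 186 in cluster 24, which held 67.9% of its 417 UMIs.

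**Figure D1:**
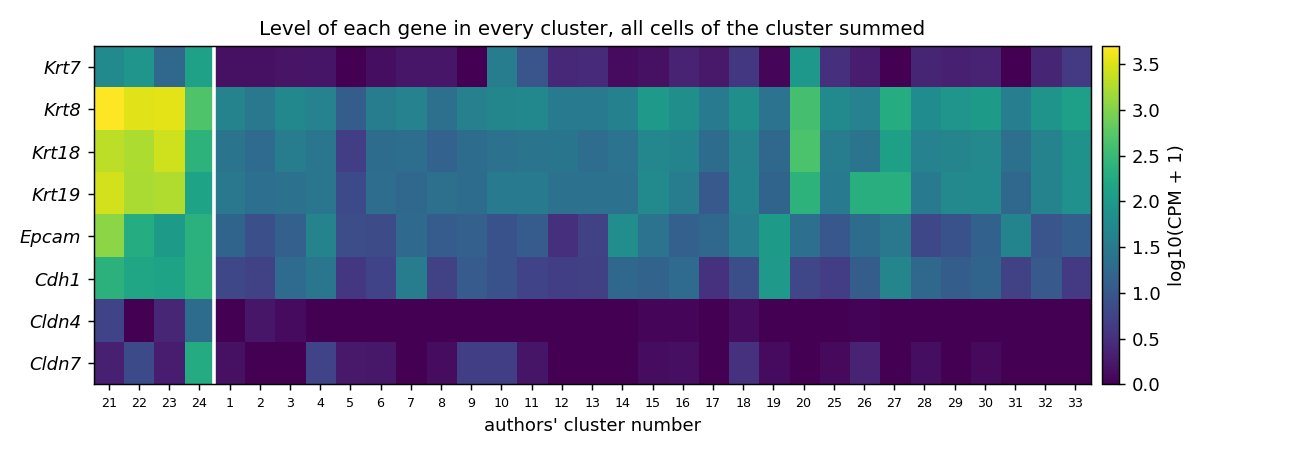
Heat map of the level of each of the 8 genes (down) in each of the 33 clusters (across), as log10(CPM + 1) over all cells of a cluster, brighter for higher; the tumour clusters 21, 22 and 23 and the epithelial cluster 24 stand left of the white line. Krt8, Krt18 and Krt19 stand highest in clusters 21 to 23, Epcam in cluster 21, and Krt7, Cldn4 and Cldn7 in cluster 24.

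The labels of these clusters rest largely on the members themselves, since they made up the epithelial marker list. Cluster 21 (2071 cells) was led by genes of gut-type epithelium such as Lypd8, Lgals4 and Krt20, and cluster 23 (2022 cells) by Prl2c2, Lgals2 and Cdkn2a, with Krt18 among its leading genes. Cluster 22 held 95 cells with a median of 1417 UMIs per cell, against 7395 in cluster 21 and 15136 in cluster 23, and is left without a name. Cluster 24 carried 10 of 10 markers of alveolar type 2 cells, the surfactant cells of the lung, and was led by Sftpc. Scgb1a1, a marker of airway secretory cells, was also among its leading genes. Whether the cluster held airway cells as well was not tested.

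Shares of cells with a UMI followed the levels once every cell was thinned to 1000 UMIs. Krt8 was then seen in 94.9% of 2045 cells of cluster 21, 88.3% of 2001 cells of cluster 23 and 26.8% of 336 cells of cluster 24. Its background was 5.52% of 5305 neutrophils and 2% of 5159 T cells of the deposited immune tables, cell types not known to make it. Epcam was seen in 52.4% of cells of cluster 21 (95% Wilson interval 50.2 to 54.5%) and 10.1% of cluster 23 (8.85 to 11.5%), against 1.23% of neutrophils (0.963 to 1.56%). Before thinning, the Epcam shares were 82.6% and 35.9%. Epcam was uneven between the neutrophil clusters, with 46.0 CPM in cluster 31 and 5.39 to 13.2 CPM in clusters 28, 29, 30, 32 and 33. Whether the Epcam UMIs of neutrophils were free RNA was not tested. Cldn4 was seen in 0.44% of cells of cluster 21 and in 0 of the 5305 neutrophils, which by 3 counts of the total allows a share of cells with a UMI of up to 0.0566%. The intervals cover counting error only. The median depth was 1085 UMIs in neutrophils and 1526 in T cells.

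Depth and cell numbers bear on what follows. The tumour clusters gave 274, 432 and 240 cells in combination mice 1 to 3, 81, 86 and 58 in SHP099 mice, 394, 222 and 137 in SX682 mice and 1138, 532 and 594 in vehicle mice. Their median UMIs per cell ran from 7451 to 7611.5 under the combination, 12236 to 15930.5 under SHP099, 9011 to 12459.5 under SX682 and 9851 to 10273.5 under vehicle. Transcripts of other cells were present in the tumour sums: the summed level of 8 neutrophil markers ran from 3296 to 6995 CPM under the combination, 1290 to 3161 under SHP099, 1205 to 3369 under SX682 and 2782 to 4301 under vehicle. That of 10 macrophage and monocyte markers ran from 784.8 to 1036 CPM under the combination, 84.68 to 718.2 under SHP099, 214.8 to 879.3 under SX682 and 926.5 to 1046 under vehicle. The part of either list in the member values was tested only by the sums of cells with few such UMIs given further on. Of the cells, 4.49% carried a barcode seen in more than 1 pool, and none shared one between mice of a pool. Bulk libraries held 58905704 to 73361005 counted reads after SHP099 and 51939301 to 52844715 after vehicle.

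In tumour cells of mice on the combination the keratin pair Krt8 and Krt18 and their relative Krt19 were lower than under vehicle, and none of the junction genes passed the test. UMIs of clusters 21 to 23 were summed per mouse and compared by edgeR's quasi-likelihood test over 11005 genes, with a call at an adjusted p below 0.05. Krt18 had 1216, 1400.0 and 1329.9 CPM in the combination mice, 1650.0, 2967 and 1527 in SHP099 mice, 2545, 2387 and 2181 in SX682 mice and 2984, 2750.2 and 2957 in vehicle mice. All combination mice lay below every mouse of the other treatments. Against vehicle the combination gave a log2 fold change of -1.14 ± 0.21 (SE, edgeR adjusted p = 0.00937).

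Krt8 had 2635, 2854 and 3346 CPM under the combination, 3959, 4545 and 3274 under SHP099, 3652, 3646 and 3940.3 under SX682 and 4401, 4084 and 5078 under vehicle. It was lower in every combination mouse than in any vehicle mouse, with a log2 fold change of -0.62 ± 0.12 (edgeR adjusted p = 0.00486). Krt19 had 1449, 1460.0 and 1696 CPM under the combination, 1449, 1799 and 1409.8 under SHP099, 2109.6, 2171 and 2378 under SX682 and 2316, 2184 and 2696 under vehicle. The combination and SHP099 mice covered the same range, and both lay below SX682 and vehicle. The log2 fold change against vehicle was -0.64 ± 0.11 for the combination (edgeR adjusted p = 0.00124) and -0.63 ± 0.11 for SHP099 (edgeR adjusted p = 0.00117). These comparisons share the vehicle mice.

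Krt7, a keratin of ducts and lung epithelium, was rare in tumour cells and fell most under SHP099. It had 12.8, 14.0 and 12.8 CPM in combination mice, 6.89, 2.62 and 0.901 in SHP099 mice, 13.8, 47.6 and 35.8 in SX682 mice and 33.5, 34.4 and 64.4 in vehicle mice. SHP099 mice lay below all others, and combination mice below vehicle. These levels rest on 128 Krt7 UMIs in combination mice, 13 in SHP099 mice, 329 in SX682 mice and 1237 in vehicle mice. The log2 fold change was -3.67 ± 0.78 under SHP099 (edgeR adjusted p = 0.0158) and -1.72 ± 0.49 under the combination (adjusted p = 0.0572), where it missed the threshold. The SHP099 value was -4.52 without SHP099 mouse 1, the call was lost without SHP099 mouse 2 (-3.46) or 3 (-3.28), and the combination passed without SX682 mouse 1 or 2 (-1.71 each), in DESeq2 (-1.74) and with the combination and vehicle fitted alone (-1.71). Under SHP099, Krt18 gave -0.50 ± 0.21 (edgeR adjusted p = 0.151). SHP099 mouse 2 stood apart at 2967 CPM, and without it the value was -0.86 and passed. Krt8 under SHP099 gave -0.20 ± 0.12 (adjusted p = 0.282).

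**Figure D2:**
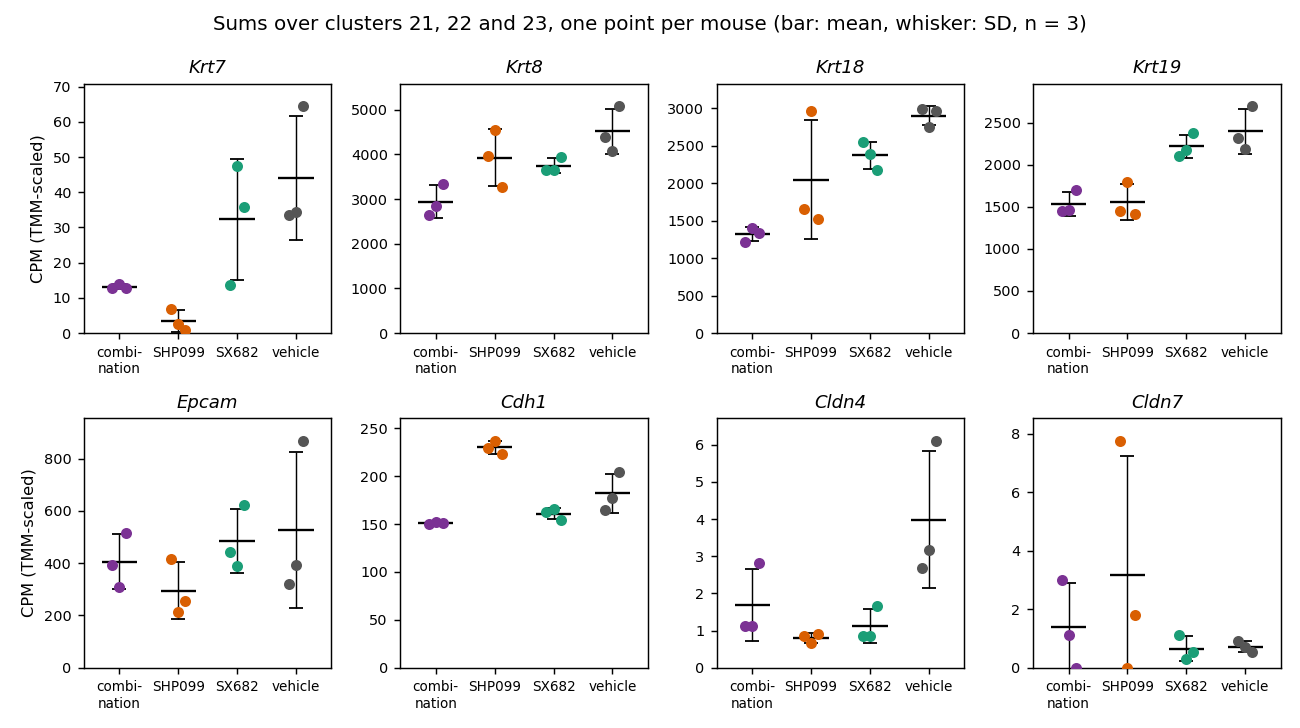
UMI level of each gene in the tumour clusters of each mouse, in CPM on TMM-scaled totals, from 0 on a linear axis, with 3 mice per treatment as points, the mean as a line and the SD as a whisker; combination, SHP099, SX682 and vehicle run from left to right. Krt18 lies between 1216 and 1400.0 CPM in combination mice and between 2750.2 and 2984 in vehicle mice, and Cdh1 is highest in SHP099 mice.

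Cdh1 moved the other way from the keratins under SHP099. It had 151, 153 and 151 CPM in combination mice, 229.9, 237 and 223 in SHP099 mice, 162, 166 and 155 in SX682 mice and 165, 177 and 205 in vehicle mice. SHP099 mice lay above all others and combination mice below all others. Cdh1 rose under SHP099 by 0.34 ± 0.09 on the log2 scale (edgeR adjusted p = 0.0205), and the combination gave -0.27 ± 0.09 against vehicle (adjusted p = 0.0654). The test of the combination against SHP099 gave -0.60 ± 0.09 (edgeR adjusted p = 0.0098), and leaving out any 1 mouse kept that call. Leaving out SHP099 mouse 2 (0.32), vehicle mouse 1 (0.27) or vehicle mouse 2 (0.32) ended the call against vehicle. That call was also lost with no filter on low counts (0.30) and with SHP099 and vehicle fitted alone (0.34).

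Epcam varied widely between mice of each group. It had 393, 307 and 516 CPM under the combination, 418, 212 and 255 under SHP099, 443, 388 and 622 under SX682 and 319.9, 393 and 867 under vehicle. The groups overlapped in every comparison with vehicle, and the log2 fold changes were -0.38 ± 0.42 for the combination, -0.84 ± 0.44 for SHP099 and -0.12 ± 0.42 for SX682 (edgeR adjusted p = 0.634, 0.257 and 0.976). The SHP099 value was -0.27 without vehicle mouse 3, the mouse with the highest level. Cluster 21, the cluster rich in Epcam, made up 46.7, 36.8 and 60.0% of tumour cells in combination mice, 38.3, 24.4 and 25.9% in SHP099 mice, 43.1, 45.9 and 60.6% in SX682 mice and 52.4, 45.7 and 63.8% in vehicle mice.

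Both claudins fell below the filter on low counts in tumour cells and have no fold change. Cldn4, a claudin of many carcinomas, had 3, 5 and 7 UMIs in combination mice, 1 in each SHP099 mouse, 6, 3 and 3 in SX682 mice and 41, 22 and 46 in vehicle mice. In CPM this was 1.13, 1.13 and 2.81 under the combination, 0.861, 0.654 and 0.901 under SHP099, 0.851, 0.854 and 1.65 under SX682 and 2.68, 3.16 and 6.10 under vehicle. SHP099 and SX682 mice all lay below every vehicle mouse, and combination mouse 3 lay just above vehicle mouse 1. The summed level of 10 alveolar type 2 markers in these sums ran from 52.25 to 62.22 CPM under the combination, 38.74 to 68.65 under SHP099, 50.77 to 69.34 under SX682 and 57.82 to 164.1 under vehicle, and its part in the Cldn4 values was not tested. Cldn7 had 13 UMIs in all combination mice, 11 in SHP099, 10 in SX682 and 23 in vehicle, too few to compare.

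Of the 6 members that passed the filter, 3 passed the test under the combination (Krt8, Krt18 and Krt19, all lower), where 9.97% of all genes passed it and 5.61% passed as lower. Under SHP099, 3 passed (Krt7 and Krt19 lower, Cdh1 higher) against 13.4% of all genes. Under SX682 none of the 6 passed in edgeR, where 0.554% of all genes did. At an unadjusted p below 0.05 there was 1 (9.82% of genes), and DESeq2 called 0. The values under SX682 were -0.27 ± 0.12 for Krt8, -0.29 ± 0.21 for Krt18, -0.11 ± 0.10 for Krt19, -0.51 ± 0.44 for Krt7 and -0.18 ± 0.09 for Cdh1. Groups did not overlap for 5 of the 6 under the combination (34.5% of all genes), 3 under SHP099 (33.4%) and 2 under SX682 (18.1%). The median log2 fold change over the 6 was -0.63 under the combination, -0.56 under SHP099 and -0.22 under SX682, with medians over all genes of 0.01, 0.00 and -0.01.

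Of the 6, Cdh1 alone passed between the combination and SHP099, as given above, where 1.61% of all genes passed. Krt19 alone passed between the combination and SX682, with a log2 fold change of -0.53 ± 0.11 (edgeR adjusted p = 0.00795), where 3.7% of genes passed. Groups did not overlap for 3 of the 6 against SHP099 (20.7% of all genes; Krt18 and Cdh1 lower, Krt7 higher) and for 4 against SX682 (21.9%; Krt8, Krt18, Krt19 and Cdh1 lower).

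Most of these calls were lost with fewer cells per mouse, and all were lost in the cells with few immune UMIs, a setting that also leaves fewer cells. With 58 cells drawn at random from each mouse, Krt18 under the combination passed at -0.89, while Krt8 (-0.24) and Krt19 (-0.23) no longer did. The values themselves moved too, from -0.62 for Krt8 and -0.64 for Krt19 with all cells, which was not explained by a test. The SHP099 values were then -2.11 for Krt7, -0.43 for Krt19 and 0.47 for Cdh1, none passing, and Krt18 passed at -0.61. When the sums were limited to tumour cells with at most 2 UMIs of leukocyte, neutrophil and macrophage markers, 61, 129 and 16 cells were left in combination mice, 29, 32 and 21 in SHP099 mice, 155, 44 and 45 in SX682 mice and 333, 162 and 170 in vehicle mice. No member passed in those cells. The values were -0.44, -0.78 and -0.55 for Krt8, Krt18 and Krt19 under the combination and -2.17, -0.52 and 0.17 for Krt7, Krt19 and Cdh1 under SHP099. For Cdh1 in the combination against SHP099 they were -0.34 with equal cells and -0.39 with few immune UMIs, and for Krt19 against SX682 -0.31 and -0.45, also not passing.

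Within cluster 21, Krt18 was lower under both SHP099 and the combination. It had 1152, 1128 and 881 CPM in combination mice, 1250.4, 1389 and 1249.8 in SHP099 mice, 2053, 1860.2 and 1911 in SX682 mice and 2562, 2439 and 2739 in vehicle mice. The 4 groups did not overlap, with the combination lowest and vehicle highest. The log2 fold change was -1.29 ± 0.13 under the combination (edgeR adjusted p = 1.75e-06) and -0.99 ± 0.13 under SHP099 (edgeR adjusted p = 5.68e-05). Krt8 had 3423, 3487 and 3562 CPM under the combination, 4399, 4909 and 3990.3 under SHP099, 4414, 4383 and 4956 under SX682 and 5496, 5443 and 6322 under vehicle. Vehicle mice stood above all treated mice and combination mice below all others, at -0.72 ± 0.12 for the combination against vehicle (edgeR adjusted p = 0.00044) and -0.38 ± 0.12 for SHP099 (adjusted p = 0.0661). Krt7 was lower under the combination at -3.27 ± 0.69 (edgeR adjusted p = 0.0198), with 4.39, 17.2 and 2.67 CPM in combination mice, 3.04, 4.27 and 0 in SHP099 mice, 30.1, 108 and 32.8 in SX682 mice and 64.1, 78.2 and 99.5 in vehicle mice. Its UMIs in this cluster numbered 26 in combination mice, 2 in SHP099 mice, 212 in SX682 mice and 838 in vehicle mice.

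Krt19 in cluster 21 had 1762, 1836 and 1830.0 CPM under the combination, 1616, 3251 and 1405 under SHP099, 2445, 2622 and 2942 under SX682 and 3158, 3011 and 3354 under vehicle, so SHP099 mouse 2 stood with the vehicle mice. The combination gave -0.81 ± 0.23 (edgeR adjusted p = 0.0467), a call lost in 8 of the leave-out fits, at -0.78 to -0.86, when any vehicle or combination mouse or SX682 mouse 1 or 2 was left out. The Krt7 call under the combination was lost without vehicle mouse 3 (-3.08), combination mouse 1 (-3.03) or combination mouse 3 (-2.83), and the value was -4.52 without combination mouse 2. Without SHP099 mouse 2, Krt8 (-0.46) and Krt19 (-1.08) passed under SHP099, and so did Krt7 without SX682 mouse 2 (-4.91). In all, 4 members passed under the combination (9.79% of genes), 1 under SHP099 (5.94%) and none under SX682 in edgeR (0.0546%, with 2 at an unadjusted p below 0.05, as 7.4% of genes). Groups did not overlap for 5 members under the combination (33.2% of all genes), 3 under SHP099 (26.5%) and 4 under SX682 (14.9%).

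Within cluster 23 Cdh1 rose under SHP099. It had 128, 133 and 131 CPM in combination mice, 234, 218 and 214 in SHP099 mice, 143, 152 and 118 in SX682 mice and 123, 155 and 126 in vehicle mice. SHP099 mice stood apart from all others, at 0.72 ± 0.11 against vehicle (edgeR adjusted p = 7.51e-05), whereas the combination gave -0.04 ± 0.11 (adjusted p = 0.889). Cdh1 in cluster 21 had 199, 208 and 179 CPM under the combination, 225, 329 and 251 under SHP099, 226, 201 and 219.9 under SX682 and 251, 230.4 and 292 under vehicle, and SHP099 gave 0.05 ± 0.15 (adjusted p = 0.915), of either sign depending on the mouse left out (-0.05 without vehicle mouse 2 and -0.14 without SHP099 mouse 2). The difference of the SHP099 effect between the clusters, tested by an interaction term added after the data were seen, was 0.72 for Cdh1 (edgeR adjusted p = 0.0539) and did not pass. It passed without vehicle mouse 2 (0.91), SHP099 mouse 2 (0.91) or SX682 mouse 3 (0.74).

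Krt19 in cluster 23 was lower under both treatments with SHP099. It had 1311, 1333 and 1617 CPM under the combination, 1395, 1522 and 1390.5 under SHP099, 2016, 2002 and 2105 under SX682 and 1907, 1829.8 and 2100.0 under vehicle. The SX682 and vehicle mice lay above all others, at -0.45 ± 0.08 for the combination (edgeR adjusted p = 0.00124) and -0.44 ± 0.08 for SHP099 (edgeR adjusted p = 0.00122), and no leave-out of 1 mouse ended either call. Krt18 had 1275, 1486 and 1726 CPM under the combination, 1821, 3221 and 1565 under SHP099, 2717, 2814 and 2446 under SX682 and 3201, 2889 and 3152 under vehicle. Krt8 had 2263, 2631 and 3214 CPM under the combination, 3815, 4432 and 3072 under SHP099, 3433, 3364 and 3431 under SX682 and 3873, 3504 and 3969 under vehicle. Combination mice lay below all vehicle mice for both, at -1.04 ± 0.25 for Krt18 (edgeR adjusted p = 0.0361) and -0.49 ± 0.13 for Krt8 (edgeR adjusted p = 0.0422). Both calls were thin: Krt18 lost it at -0.94 to -1.16 when any vehicle or combination mouse or SX682 mouse 1 or 2 was left out, and Krt8 lost it at -0.37 to -0.55 without any vehicle or SX682 mouse, SHP099 mouse 1 or combination mouse 1 or 2. Under SHP099, Krt18 gave -0.48 ± 0.25 (adjusted p = 0.25), passing at -0.86 without SHP099 mouse 2, and Krt8 gave -0.00 ± 0.13 (adjusted p = 0.994). Krt7 in cluster 23 had 17.5, 13.0 and 21.6 CPM under the combination, 8.48, 2.29 and 1.08 under SHP099, 8.64, 12.7 and 39.2 under SX682 and 18.5, 15.7 and 30.5 under vehicle. Combination and vehicle mice overlapped, at -0.35 ± 0.53 (edgeR adjusted p = 0.769), and SHP099 gave -2.53 ± 0.88 (adjusted p = 0.0958), passing without SX682 mouse 3 (-2.54). The SHP099 mice held 11 Krt7 UMIs in this cluster and the vehicle mice 386.

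In cluster 23, 3 of the members passed under the combination (8.91% of genes), 2 under SHP099 (14%) and none under SX682 in edgeR (0.866%, with 0 at an unadjusted p below 0.05, as 10.1% of genes). Groups did not overlap for 3 members under the combination (31.7% of all genes), 3 under SHP099 (33.2%) and 2 under SX682 (18.5%). In the interaction test no member passed in edgeR for the combination (0.284% of 10213 genes), SHP099 (0.93%) or SX682 (0%). At an unadjusted p below 0.05 there were 2 for the combination (9.02% of genes), 3 for SHP099 (12.8%) and 0 for SX682 (3.65%). Krt19 passed for SHP099 without SHP099 mouse 2 (0.63). The differences for the combination were 0.36 for Cdh1, 0.21 for Krt8, 0.24 for Krt18, 0.34 for Krt19, 0.58 for Epcam and 2.87 ± 0.92 for Krt7 on the log2 scale (edgeR adjusted p = 0.374 for Krt7). Neutrophil marker sums were higher in cluster 21 (8902 to 12710 CPM under the combination, 5421 to 8881 under SHP099, 2871 to 6832 under SX682 and 4756 to 10480 under vehicle) than in cluster 23 (1427 to 2353 under the combination, 469 to 1136 under SHP099, 168 to 1500 under SX682 and 833 to 1247 under vehicle). Their part in the results was not tested.

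**Figure D3:**
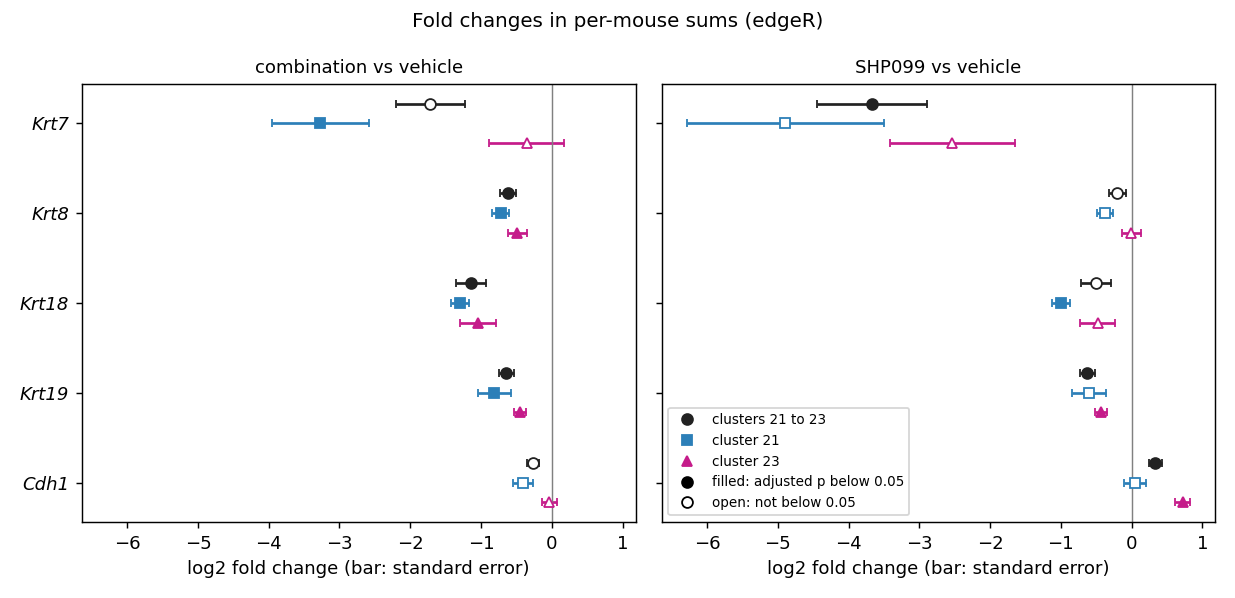
Log2 fold changes against vehicle of 5 members (SE as bars) in the sums over clusters 21 to 23 (circles), in cluster 21 (squares) and in cluster 23 (triangles), for the combination (left) and SHP099 (right); filled symbols have an edgeR adjusted p below 0.05. Krt18 lies below 0 in both clusters under both treatments, and Cdh1 under SHP099 stands at 0.72 in cluster 23 and 0.05 in cluster 21.

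Cluster 24 held few cells: 94, 70 and 11 in combination mice, 34, 8 and 7 in SHP099 mice, 37, 14 and 5 in SX682 mice and 50, 11 and 8 in vehicle mice. SHP099 kept only 1 mouse with 10 cells and could not be fitted. No member passed in edgeR for the combination (0.537% of 3911 genes) or for SX682 (0.0767%). At an unadjusted p below 0.05 there were 4 for the combination (9.36% of genes) and 3 for SX682 (9.13%). The groups did not overlap for 4 members under the combination (26.6% of genes) and 4 under SX682 (42.1%). Krt7 had 85.8, 79.9 and 58.1 CPM in combination mice, 68.5, 118 and 58.7 in SHP099 mice, 139, 372 and 117 in SX682 mice and 257, 287 and 155 in vehicle mice. Cldn7, the claudin with most of its UMIs in this cluster, had 193, 202 and 38.7 CPM under the combination, 137, 23.7 and 157 under SHP099, 412, 257 and 322 under SX682 and 165, 153 and 217 under vehicle. SX682 mice were the highest of all for Cldn7, from 37, 14 and 5 cells. Cldn4 UMIs numbered 1, 1 and 0 in combination mice, 0, 2 and 0 in SHP099 mice, 4, 0 and 0 in SX682 mice and 17, 3 and 1 in vehicle mice.

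In bulk RNA of sorted Epcam+ cells no member passed the test after SHP099. In these libraries fewer cells of a type and less RNA per cell cannot be told apart. Per kilobase of merged exons, Krt8 was the most abundant member (2139 CPM per kb after SHP099, 2573 after vehicle), followed by Krt19 (1779 and 1971) and Krt18 (1282 and 1683). Cdh1 (220.1 and 247) and Epcam (176 and 142) came next, and Krt7 (6.54 and 17.3), Cldn7 (3.60 and 9.51) and Cldn4 (0.361 and 1.93) were lowest. The order of the members was the same after SHP099 and after vehicle.

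Cldn4 had 0.955, 0.565 and 0.445 CPM after SHP099 (58, 34 and 32 reads), against 5.08, 1.73 and 3.70 CPM after vehicle (260, 91 and 192 reads). The groups did not overlap, and the log2 fold change of -2.42 ± 0.49 had an edgeR adjusted p of 0.153. Cldn7 had 5.84, 6.31 and 8.87 CPM after SHP099 and 16.8, 11.1 and 27.7 after vehicle, again without overlap, at -1.40 ± 0.35 (edgeR adjusted p = 0.237). DESeq2 called both, and edgeR without a filter on low counts called Cldn4. Krt7 had 25.7, 45.3 and 67.4 CPM after SHP099 and 106, 45.3 and 214 after vehicle, at -1.40 ± 0.57 (edgeR adjusted p = 0.538). The groups overlapped, with 1 SHP099 library above the lowest vehicle library, and the value was -0.71 without vehicle library 3.

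The abundant keratins differed less. Krt8 had 3628, 4220.2 and 4719 CPM after SHP099 and 5027, 4664 and 5424 after vehicle, with 1 SHP099 library above the lowest vehicle library and a log2 fold change of -0.27 ± 0.14 (edgeR adjusted p = 0.654). Krt18 had 1456, 1813 and 2256 CPM after SHP099 and 2525, 2095 and 2637 after vehicle, at -0.39 ± 0.18 (edgeR adjusted p = 0.601). Krt19 had 2976, 3259 and 3663 CPM after SHP099 and 3766, 3562 and 3639 after vehicle, at -0.15 ± 0.12 (adjusted p = 0.769). Both overlapped.

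Cdh1 and Epcam, the adhesion genes, overlapped between the groups in bulk. Cdh1 had 922, 977 and 1122 CPM after SHP099 and 924, 1156 and 1305 after vehicle, at -0.16 ± 0.15 (edgeR adjusted p = 0.794). Epcam, whose protein was used for the sort, had 327, 628 and 206 CPM after SHP099 and 297, 301 and 341 after vehicle, at 0.31 ± 0.36 (adjusted p = 0.84), and -0.23 without SHP099 library 2.

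Of the 8 members, 0 passed in edgeR, where 0.123% of 20314 genes did. At an unadjusted p below 0.05 there were 3 (8.87% of genes), and DESeq2 called 2. The groups did not overlap for 2 members, against 14.9% of all genes. The median log2 fold change over the 8 was -0.33, against -0.00 over all genes. Markers of other cells moved with the treatment in these libraries: the summed level of 10 alveolar type 2 markers ran from 457 to 789 CPM after SHP099 and 3508 to 7616 after vehicle, that of 10 macrophage and monocyte markers from 556 to 1348 after SHP099 and 1992 to 2844 after vehicle, and that of 7 fibroblast markers from 450.3 to 818 after SHP099 and 1262 to 2272 after vehicle. Their part in the member values was not tested. Cldn7, Krt7 and Cldn4 are among the genes that were highest in cluster 24 of the single-cell data, which had Sftpc and Scgb1a1 among its leading genes.

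**Figure D4:**
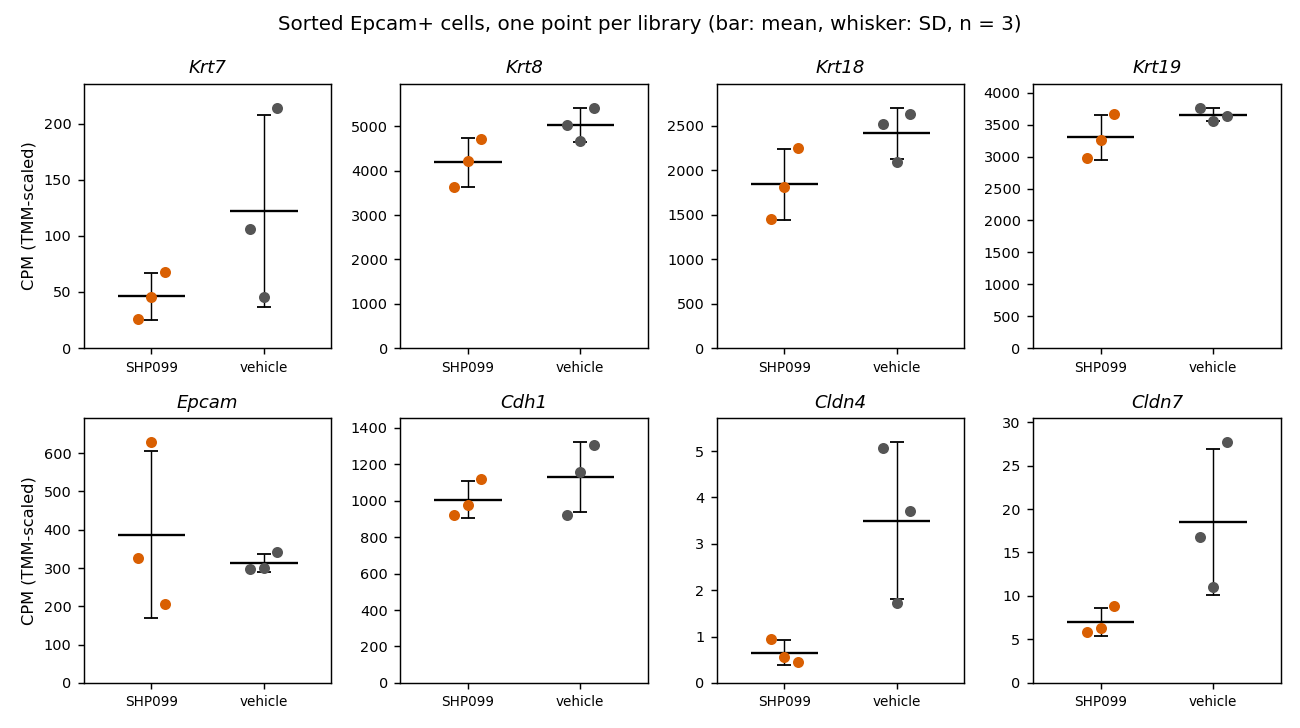
Read level of each gene in the 6 bulk libraries, in CPM on TMM-scaled totals from 0 on a linear axis, with SHP099 left of vehicle, the mean as a line and the SD as a whisker. Cldn4 and Cldn7 do not overlap between SHP099 and vehicle, and Krt8, Krt18, Krt19, Cdh1 and Epcam do.

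Keratin UMIs in neutrophils and T cells can come from free RNA of the pool or from droplets that mix cell types. These sources were not told apart. The UMIs were lower in every treated group. In neutrophils, Krt8, Krt18 and Krt19 summed to 183.4, 216.6 and 186.6 CPM in combination mice, 48.68, 63.31 and 70.93 in SHP099 mice, 180.9, 177.9 and 118.8 in SX682 mice and 399.8, 311.1 and 430.0 in vehicle mice. No treated mouse reached the lowest vehicle mouse, and SHP099 mice lay below all others. As a share of the level in tumour cells of the same mouse, this was 3.34, 3.8 and 2.96% under the combination, 0.71, 0.707 and 1.19% under SHP099, 2.11, 2.06 and 1.37% under SX682 and 4.23, 3.5 and 4.14% under vehicle. Tumour clusters supplied 22.5, 27.6 and 27.4% of all UMIs in combination mice, 11.3, 15.7 and 15.6% in SHP099 mice, 33.9, 16.9 and 12.8% in SX682 mice and 45.1, 37.5 and 42.0% in vehicle mice. T cells held less, at 51.87, 54.78 and 55.95 CPM under the combination, 15.58, 17.6 and 42.95 under SHP099, 33.8, 27.54 and 30.61 under SX682 and 111.7, 96.96 and 131.6 under vehicle.

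The mice of a treatment shared 1 pool and so are not replicates of its free RNA. The shares above set this background against the tumour cells of 1 mouse, though every mouse of the pool can add to it. The p-values below measure the spread between mice within pools, not between pools. Of the 5 members that passed the filter in neutrophils, 3 were called lower under each treatment, where 6.82% of genes were called under the combination (3.45% as lower), 13.2% under SHP099 (7.06% as lower) and 0.522% under SX682 (0.428% as lower). Krt18 gave -1.28 under the combination, -2.38 under SHP099 and -1.31 under SX682 (edgeR adjusted p = 8.96e-05, 1.14e-08 and 0.000637). Krt19 gave -1.05 under the combination, -3.13 under SHP099 and -1.24 under SX682 (edgeR adjusted p = 0.00686, 1.41e-07 and 0.016), and lost the call under the combination without vehicle mouse 1 (-0.86) and under SX682 without vehicle mouse 1 (-1.04), vehicle mouse 3 (-1.21) or SX682 mouse 2 (-1.34). Krt8 was at -0.95 under the combination, -2.90 under SHP099 and -1.36 under SX682 (edgeR adjusted p = 0.00164, 3.62e-09 and 0.000453). In T cells 5 members were tested, of which 1 passed under the combination, 4 under SHP099 and 3 under SX682. Krt18 was lower under the combination, SHP099 and SX682 at -2.00, -2.40 and -2.23 (edgeR adjusted p = 0.000313, 8.68e-06 and 0.000215), where 4.47, 12.9 and 0.372% of genes were called. Under the combination Krt8 gave -0.65 and Krt19 -1.14 (edgeR adjusted p = 0.248 and 0.0537), and Krt19 passed without SHP099 mouse 2 or 3 (-1.14 each) or combination mouse 1 (-1.63). The calls of Cdh1 under SHP099 (-1.59) and of Krt19 under SX682 (-1.66) were lost in 3 leave-out fits each, the first without vehicle mouse 1 (-1.29), vehicle mouse 3 (-1.49) or SHP099 mouse 1 (-1.29), and the second without vehicle mouse 1 (-1.19) or SX682 mouse 2 (-1.69) or 3 (-1.42). T cells of vehicle mice held 35 Cdh1 and 94 Krt8 UMIs, against 5301 and 134018 in their tumour sums. Among clusters with T cell markers, Cdh1 stood at 18.6 CPM in cluster 3 and at 3.00 to 10.5 CPM in clusters 2, 5, 8 and 9. Whether the Cdh1 UMIs of T cells were free RNA was not tested.

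The ratio of Krt18 to Krt8 UMIs gives a further view of that background. In tumour cells it was 0.462, 0.491 and 0.397 in combination mice, 0.417, 0.653 and 0.466 in SHP099 mice, 0.697, 0.655 and 0.553 in SX682 mice and 0.678, 0.673 and 0.582 in vehicle mice. In neutrophils it was 0.534, 0.452 and 0.462 in combination mice, 0.971, 1.08 and 0.562 in SHP099 mice, 0.768, 0.421 and 1.15 in SX682 mice and 0.554, 0.659 and 0.636 in vehicle mice. The neutrophil ratios of vehicle and combination mice lay near those of their tumour cells, whereas in SHP099 mice, with 34, 39 and 32 Krt8 UMIs over all neutrophils, they were higher. In SX682 mice the neutrophil ratio was above the tumour ratio in mice 1 and 3 and below it in mouse 2.

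**Figure D5:**
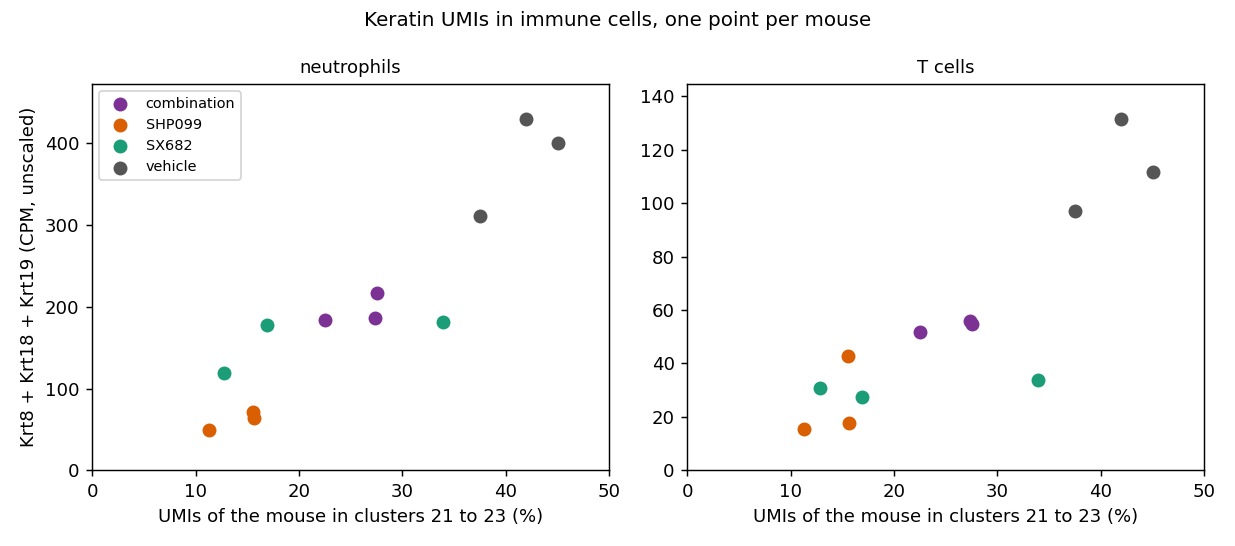
Summed Krt8, Krt18 and Krt19 level (CPM, unscaled) in neutrophils (left) and T cells (right) of each mouse against the share of all UMIs that came from the tumour clusters (percent), for 12 mice coloured by treatment. In neutrophils SHP099 mice sit lowest at 48.68 to 70.93 CPM and vehicle mice highest at 311.1 to 430.0 CPM. The mice of each treatment shared a pool, so their points are not independent measures of free RNA.

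Other genes of the epithelial programme were counted from lists chosen for their role. Of 8 other type I and type II keratins, not all of them of simple epithelia, 5 were tested in the tumour sums. Krt20 and Krt23 were lower under both the combination and SHP099. Of all genes in these sums, 9.97% were called under the combination, 13.4% under SHP099 and 0.554% under SX682, in either direction. These shares also stand beside the counts of the lists that follow. Krt20, an intestinal keratin, had a mean of 284 CPM under the combination and 303 ± 43.5 under SHP099 against 695 ± 303 under vehicle (SD, n = 3), at -1.29 ± 0.27 and -1.20 ± 0.28 (edgeR adjusted p = 0.0198 and 0.0227). Krt23 averaged 18.3 CPM under the combination against 57.1 under vehicle, at -1.60 ± 0.26 (edgeR adjusted p = 0.00267), and gave -0.92 under SHP099 (adjusted p = 0.0475). None of 10 keratins of basal and squamous epithelium passed the filter. In single cells the list genes were fitted only in the sums over clusters 21 to 23. Cluster 21, where Krt20 was a leading gene, gave 35.5, 25.1 and 45.1% of tumour UMIs in combination mice. It gave 27.6, 15.1 and 18.3% in SHP099 mice and 33.5, 30.0 and 46.5% in vehicle mice. The part of this mix in the values of the list genes was not tested. The Krt20 call was lost under the combination without combination mouse 1 (-1.25), 2 (-1.26) or 3 (-1.36) and under SHP099 without SHP099 mouse 2 (-1.10) or 3 (-1.18), and the SHP099 value was -0.77 without vehicle mouse 3. Nor did it pass with equal cells (-0.93 under the combination, -0.85 under SHP099) or few immune UMIs (-1.73 and -1.62), or with the pair of treatments fitted alone (-1.28 and -1.20). That of Krt23 under SHP099 was lost without vehicle mouse 2 or 3, combination mouse 1 or any SHP099 mouse (-0.71 to -1.05), with few immune UMIs (-0.89), with no filter on low counts (-0.95) and without cluster 22 (-0.90).

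The junction lists held 1 to 3 calls or none in each comparison. Of 9 desmosome genes 7 were tested, of which 2 were lower under the combination (where 5.61% of all genes were called lower). There were 3 lower under SHP099 (13.4% of all genes called in either direction). Under SX682 there was 1 (0.554% of all genes), Perp, at -0.75, lost without any of 10 of the 12 mice. Perp, a membrane protein of desmosomes, gave -0.88 ± 0.16 under the combination and -0.72 ± 0.18 under SHP099 (edgeR adjusted p = 0.00282 and 0.0141), with a mean of 31.6 CPM under SHP099 against 52.3 under vehicle. Evpl, which encodes envoplakin, gave -0.97 under the combination and -1.24 under SHP099 (edgeR adjusted p = 0.0179 and 0.0145), and Pkp3, which encodes plakophilin 3, gave -1.58 under SHP099 (adjusted p = 0.0283). The median of the 7 was -0.58 under the combination and -0.69 under SHP099. None of 4 other claudins or 13 other tight junction genes passed under either treatment. Among 7 adherens junction genes, Vcl (vinculin) was higher under SHP099 at 0.56 ± 0.13 (edgeR adjusted p = 0.00963) and Ctnna1, the alpha catenin that binds E-cadherin's complex, was lower under the combination at -0.36 (adjusted p = 0.0356). With equal cell numbers Perp gave -0.26 under the combination and -0.50 under SHP099, Evpl -1.23 under the combination and -1.01 under SHP099, Ctnna1 -0.03 under the combination and Vcl 0.62 under SHP099, and none of these passed. With few immune UMIs Perp gave -1.05 under the combination and -0.73 under SHP099 and Ctnna1 gave -0.51 under the combination, also not passing, and Pkp3 did not pass in DESeq2 (-1.60) or with SHP099 and vehicle fitted alone (-1.58). Some calls were lost on leaving out 1 mouse. Under SHP099, Perp lost its call without SHP099 mouse 2 (-0.69) or 3 (-0.66), Evpl without SHP099 mouse 2 (-1.17), and Pkp3 without vehicle mouse 2 or 3 or SHP099 mouse 1 or 2 (-1.28 to -1.58). Under the combination, Evpl lost it without vehicle mouse 3 (-0.77) or combination mouse 1 (-0.74), and Ctnna1 without vehicle mouse 2 or 3 or combination mouse 1 or 3 (-0.27 to -0.39).

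Under SX682 no gene of these lists passed other than Perp. Among 6 tested epithelial regulators, Klf4, a transcription factor of differentiated epithelium, was lower under the combination, with means of 149 CPM against 245 under vehicle and -0.72 ± 0.15 (edgeR adjusted p = 0.00738), and none passed under SHP099. Klf4 did not pass with equal cells (-0.15) or with few immune UMIs (-0.91). None of the 3 tested repressors of Cdh1 passed under either treatment. Of 8 tested mesenchymal genes, 1 was lower under the combination (median of the 8, -0.69) and 2 under SHP099 (median -0.50), and none was higher. Of all genes, 9.97% were called under the combination and 13.4% under SHP099. Vim, the intermediate filament of mesenchymal and many tumour cells, was lower under the combination at 1988 CPM and under SHP099 at 2377 CPM, against 3218 CPM under vehicle, or -0.69 ± 0.12 and -0.44 ± 0.12 (edgeR adjusted p = 0.00209 and 0.0243). With few immune UMIs Vim gave -0.15 under the combination and -0.22 under SHP099, and neither passed. With equal cells the SHP099 value of -0.44 did not pass. The SHP099 call for Vim was also lost when vehicle mouse 1 (-0.34), SHP099 mouse 3 (-0.37) or SHP099 mouse 1 (-0.44) was left out. Col3a1, a collagen of fibroblasts, had 0 UMIs in SHP099 tumour sums, at least 7.05-fold lower than under vehicle with 3 counts set over the group. In bulk, 1 gene of all these lists passed, Cldn18, the lung claudin, with 11.4 ± 1.60 CPM after SHP099 and 31.6 ± 5.72 after vehicle (SD, n = 3 each), at -1.48 ± 0.19 (edgeR adjusted p = 0.0488), a call lost without any 1 library (-1.33 to -1.59).

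The genes whose levels across the 33 clusters were most like each member were found by Pearson correlation of log2(CPM + 10) among 4266 genes, as a description. Krt8 and Krt18 were most like each other (r = 0.993), and next came Gsta4 for Krt8 (0.975) and Baiap2l1 for Krt18 (0.963). Krt19 was nearest to Krt8 (0.956) and Krt18 (0.953). Epcam was nearest to Ttc36 (0.868), and Epcam and Cdh1 (0.861) were next. Cldn7 was nearest to genes of cluster 24, Fam183b (0.987), Irx1 (0.985) and Slc34a2 (0.983), Krt7 to Il33 (0.935) and Aldh1a1 (0.933), and Cldn4 to Atp7b (0.993) and Ccl20 (0.977). All points share the same libraries, and each r over 33 clusters is set by the few clusters where the gene is high.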

How the data were processed

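Bulk values are raw read counts of genes that the authors deposited, not normalized and, per the file labels, counted without strand. The single-cell values are deposited raw UMI counts, also not normalized, with the authors' cluster numbers, hashtag mouse of each cell and tables of 9540 neutrophils and 6570 T cells. STAR, Picard, HTSeq, DESeq2, bedtools, R 3.3.0, Cell Ranger and the mm10 build are named in the submitters' processing notes, with no other versions. The sources used here do not give the cell filters, the annotation or the demultiplexing settings.

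UMI counts were summed per mouse over the cells of a cluster set, for mice with at least 10 cells, and the 4 treatments (12 mice) were fitted together. Genes were tested with edgeR 4.0.16 under R 4.3.3 with limma 3.58.1 (TMM scaling, filterByExpr, robust quasi-likelihood F test, two-sided, Benjamini-Hochberg over all genes tested, a call at an adjusted p below 0.05), which was tested on simulated data. Bulk used the 6 libraries alone. CPM of samples are on TMM-scaled totals, and those of clusters, shares and free RNA on unscaled totals. P-values measure the spread between these mice or libraries, and the labels do not say whether bulk libraries came from separate mice. Cells for shares were thinned to 1000 UMIs, with 95% Wilson intervals and a floor of 3 counts. No doublet caller was run, and cells that mix 2 types may remain in the deposited clusters.

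The text names all 8 members, of each pathway list up to 4 genes that passed by size of change, and the 3 genes most like each member among those at 50 CPM or more in cluster 21, 22, 23 or 24. It uses part of them, and the list of Epcam partners is not reported here. The members and lists were chosen with earlier results of these data known. Gene positions are those of GENCODE vM21. Alternatives were DESeq2 1.42.0, other scalings and filters, the replicate number as a block, 2 treatments fitted alone, equal cell numbers, cells with few immune UMIs, clusters 21 and 23 alone and leaving out each library or mouse. The interaction of cluster and treatment was added after the data were seen. Sums, shares and figures used Python 3.11.15 with matplotlib 3.10.9, scipy 1.17.1, pandas 2.3.3 and numpy 2.4.6.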

Additional observations from a re-analysis of the deposited data

How the results depend on the processing

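Depth limits the claudins and Krt7 in single cells, since single UMIs decide their values, and the SHP099 mice gave the fewest tumour cells. Leaving out 1 library or mouse kept direction and call in 1003 of 1146 values of single genes, lost the call in 116, gained it in 17 and turned the sign in 10. For the other settings these were 406, 69, 10 and 5 of 490. Counts of called members changed as follows. In bulk (0 called) no filter gave 1 and DESeq2 2. In tumour sums, SHP099 (3) gave 1 with equal cell numbers and 0 in cells with few immune UMIs, and the combination against vehicle (3) gave 1 and 0. The combination against SHP099 (1) gave 2 without a filter, 3 in DESeq2, 2 with the 2 treatments fitted alone, 0 with equal cells and 0 with few immune UMIs. Against SX682 (1) it gave 2 on unscaled totals, 2 in DESeq2, 2 fitted alone and 0 with few immune UMIs. The cause of these changes was not tested. Equal cell numbers and few immune UMIs keep fewer cells, and the equal cells were 1 random draw.

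Leaving out 1 library or mouse gave 0 to 0 members in bulk, 2 to 4 for SHP099, 3 to 4 for the combination, 1 to 2 for the combination against SHP099 and 1 to 2 against SX682 in tumour sums. In cluster 21 it gave 2 to 5 for the combination and 1 to 3 for SHP099, in cluster 23 2 to 3 for SHP099 and 1 to 3 for the combination, and in cluster 24 0 to 3 for the combination. In neutrophils it gave 2 to 3 for SX682 and for the combination, in T cells 3 to 4 for SHP099, 2 to 3 for SX682 and 1 to 2 for the combination, and in the interaction for SHP099 0 to 2. Signs turned with equal cell numbers for Krt19 (0.079) and Epcam (0.24) under SX682 and for Epcam (0.064) and Cdh1 (0.13) under the combination, and with few immune UMIs for Krt7 under the combination (0.25). They turned on leaving out 1 library or mouse for Epcam in bulk (-0.23 to 0.63), Epcam in tumour sums under SX682 (-0.38 to 0.45) and the combination (-0.63 to 0.18), Cdh1 in cluster 21 under SHP099 (-0.14 to 0.15), Krt8 in cluster 23 under SHP099 (-0.14 to 0.12) and Cdh1 in cluster 23 under the combination (-0.10 to 0.065). Cluster 22 and SHP099 in cluster 24 could not be fitted.

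Counts over all genes moved by over 1.5 times as well: bulk called 25 genes, against 569 in DESeq2 and 167 without a filter; SHP099 in tumour sums 1476, against 320 with equal cells and 344 with few immune UMIs; the combination 1097, against 152 and 132; SX682 61, against 13 and 0, with 177 in DESeq2, 111 without a filter, 16 on unscaled totals and 15 fitted alone. The combination against SHP099 called 177, against 7 and 2, with 445 in DESeq2 and 293 without a filter, and against SX682 407, against 101 and 140.

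Deviations of samples with the same replicate number had correlations of -0.03, 0.03 and 0.03 in bulk, and of -0.16 to 0.31 with a mean of 0.02 in tumour sums. They were not all above 0.1 in any comparison with vehicle, and the numbers were not taken to pair samples. With the replicate number as a block, the count of called members was 2 instead of 1 for SHP099 in cluster 21, 1 instead of 3 for the combination in cluster 23, 2 instead of 0 for SX682 and 2 instead of 0 for the combination in cluster 24, and 2 instead of 1 for the combination in T cells. In tumour sums Krt7 under the combination gave -1.72 and passed, and in cluster 23 Krt7 under SHP099 gave -2.53 and passed. Over all genes the block gave 9 instead of 5 calls for SX682 in cluster 21, 159 instead of 3 for SX682 and 132 instead of 21 for the combination in cluster 24.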

Other observations

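Some other clusters held members above the level that keratins show in most immune clusters, and they are given as values. Cluster 20 (379 cells, 6 of 7 fibroblast markers) had 409.7 CPM of Krt8, 439.5 of Krt18, 246 of Krt19 and 92.0 of Krt7, with 165 CPM of Msln, a gene of mesothelial cells. Msln was higher in the tumour clusters, at 605 CPM in cluster 21, 266 in cluster 22 and 360 in cluster 23. The source of the keratin UMIs of cluster 20 was not tested. The Krt8 UMIs of cluster 20 numbered 20, 18 and 2 in combination mice, 1, 0 and 0 in SHP099 mice, 464, 674 and 10 in SX682 mice and 243, 215 and 156 in vehicle mice. Cluster 26 (3628 cells, 7 of 8 alveolar macrophage markers) had 212 CPM of Krt19 and 43.3 of Krt8, the reverse of the order in the tumour clusters. Krt19 there had 390, 216 and 253 CPM in combination mice, 247, 220 and 145 in SHP099 mice, 168, 249 and 114 in SX682 mice and 102, 102 and 80.7 in vehicle mice, so every treated mouse lay above every vehicle mouse. This difference was not tested, and the share of all genes without overlap in this cluster was not counted. Treatment and pool cannot be told apart here. Cluster 19 (1035 cells, led by the dendritic cell genes Cd209a, Mgl2 and Ccl17 and left without a name) had 102 CPM of Epcam and 96.9 of Cdh1, the highest outside the tumour and epithelial clusters. Its Epcam UMIs numbered 17, 14 and 3 in combination mice, 8, 53 and 21 in SHP099 mice, 59, 133 and 129 in SX682 mice and 90, 111 and 66 in vehicle mice. After cluster 19, Epcam stood at 63.8 CPM in cluster 14 (7 of 10 macrophage and monocyte markers) and 46.0 in the neutrophil cluster 31. It had 44.3 CPM in cluster 4 (5 of 7 B and plasma cell markers) and 37.5 in cluster 18 (4 of 8 dendritic cell markers).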
